A study of Mus musculus with 9 samples.

Results

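Stem and progenitor markers are described here in 3 sorted cell populations of the mouse: Ly6C-high microglia, Ly6C-low microglia and spleen monocytes. The set was given by name and holds 10 of the 19937 genes measured: Prom1, Nes, Mecom, Meis1, Myc, Cd34, Lmo2, Myb, Hoxa9 and Sox2. All 10 had a probe set that names 1 gene only. Mecom had 2 such probe sets, and the brighter one over the 9 arrays represents it. No filter on low values was applied, so all 10 were tested.

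All mice were wild type C57BL/6, with no treatment and no age in the labels. Brain cells were taken after perfusion, collagenase and DNase digestion and a Percoll step, then stained for CD11b, CD45, Ly6C, F4/80 (EMR1) and MHC II and sorted by flow cytometry. Ly6C-high microglia (3 arrays) carry the cell type label MgSCs, Ly6C-low microglia (3 arrays) are labelled bulk microglia cells, and spleen monocytes (3 arrays) have no Ly6C level in the labels, which do not describe their gate. The series title proposes that microglia are maintained and regenerated by a specialised subset. The markers are compared here between whole sorts, so their values do not tell which cells of a sort express them. The labels do not say whether arrays of a group came from separate or pooled animals, so each p-value here reflects variation among these arrays only, and that variation may be technical. Values are log2 intensities, given array by array (n = 3 per group), and a ± after a fold change is its standard error (SE). A gene is called where its limma adjusted p is under 0.05 over all genes. The number of arrays limits the precision, and the table used here has no detection call, so a low value cannot be told from background.

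As background, these genes mark immature cells of different tissues. CD34 and the transcription regulators Mecom, Meis1, Hoxa9, Lmo2 and Myb belong to blood stem and progenitor cells, in which HOXA9 and MEIS1 act as DNA-binding partners and LMO2 bridges SCL/TAL1 and GATA factors. Nestin and SOX2 mark neural stem cells, prominin-1 (CD133) marks several stem cell types, and MYC drives cell growth in many dividing cells. None of them is restricted to stem cells: prominin-1, nestin, CD34 and LMO2 are also known in endothelium, and microglia arise from yolk sac progenitors without a need for MYB.

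The sorts were read against cell type markers first, since these vary with the members below. All 14 measured homeostatic microglia genes were lower in Ly6C-high than in Ly6C-low microglia, and all 21 brain endothelium genes were higher. The endothelium list averaged 10.40, 10.65 and 10.92 in Ly6C-high replicates 1 to 3, 7.63, 7.03 and 6.36 in Ly6C-low replicates 1 to 3, and 6.22 to 6.26 in monocytes. The microglia list averaged 8.11 to 8.83 in Ly6C-high, 10.82 to 11.29 in Ly6C-low microglia, while monocytes had 7.10 to 7.25. Ly6C-high replicate 2 carried more of the 9 classical monocyte genes (9.66, against 7.38 and 6.36 in replicates 1 and 3) and of 19 mitosis genes (7.43, against 6.17 and 5.9). Ly6C-low replicate 3 carried more of the 11 neutrophil genes (9.48, against 6.76 and 7.12). The monocyte arrays held B cell and T cell genes, with Cd79a at 9.29 to 10.41 and Cd3e at 9.13 to 9.54. Ly6C-high arrays correlated with each other at 0.872 to 0.924 across the probe sets, below the 0.967 or more within each other group.

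Between the microglia sorts, 5 of the 10 members were called, against 15.4% of all genes. Prom1, Nes and Mecom were higher in Ly6C-high microglia (3 of 10, against 4.49% of all genes), and Myc and Meis1 were lower (2 of 10, against 11%). Cd34, Lmo2, Myb, Hoxa9 and Sox2 were not called. The median log2 fold change was 0.23 over the members and 0.05 over all genes. Without the pair of arrays that carry the number 11 in their descriptions (Ly6C-high replicate 2 and Ly6C-low replicate 3), 3 members were called, with the Mecom and Meis1 calls lost, beside 2463 of 19937 genes (3080 with all arrays). Arrays of the microglia sorts did not overlap for 6 members, the 5 called and Cd34, and for 30.1% of all genes. Of all calls 29.1% were higher in Ly6C-high microglia as deposited and 40.8% after quantile normalization, which left the signs of the 5 called members as they were.

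**Figure D1:**
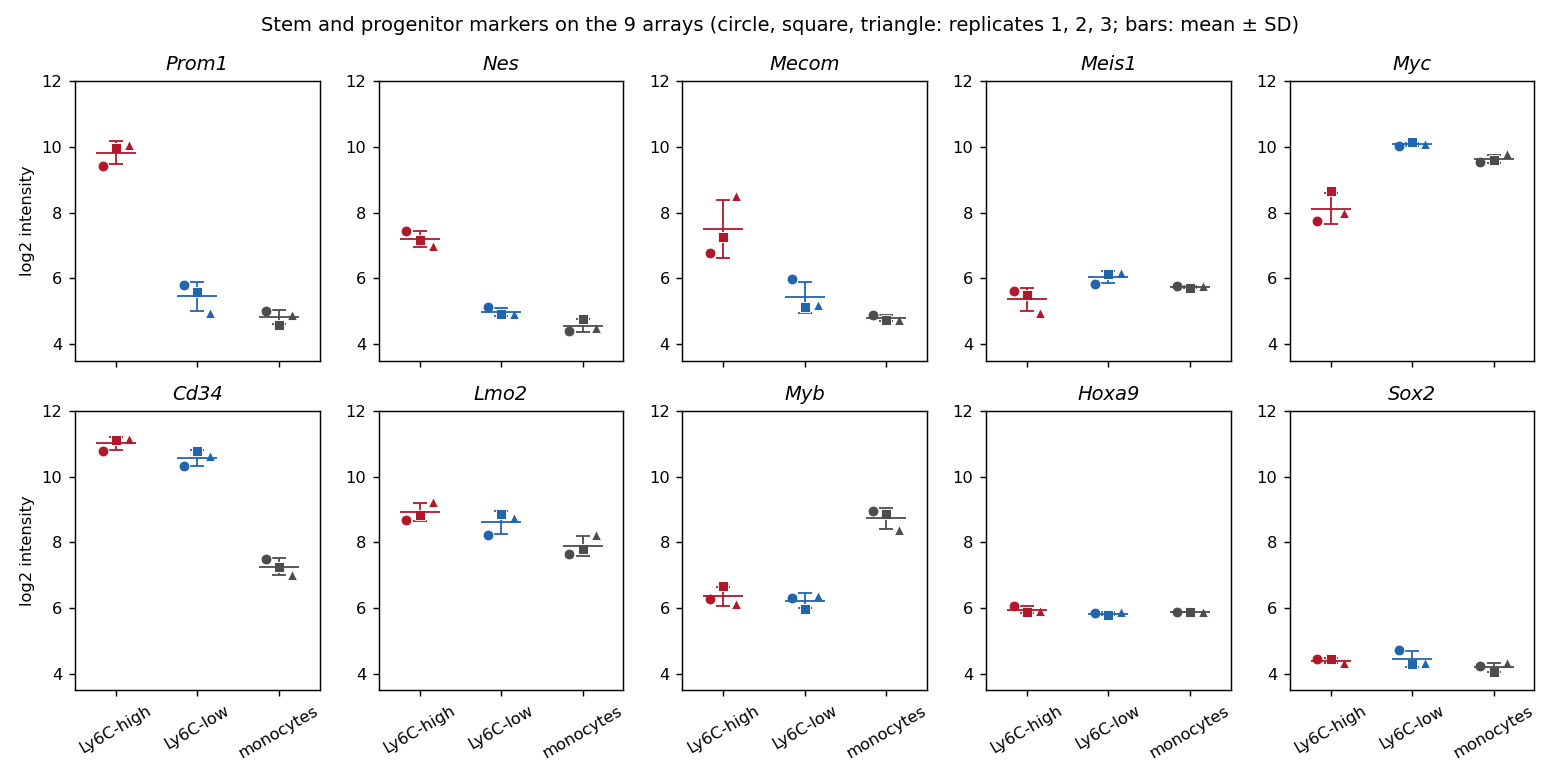
Log2 intensity of each marker (vertical axis) on the 3 arrays of each sort (horizontal axis), with replicates 1, 2 and 3 as circle, square and triangle and bars at the mean ± SD. Prom1, Nes and Mecom stand apart in Ly6C-high microglia, Myc is lowest there, Cd34 is low and Myb high in monocytes, and Hoxa9 and Sox2 differ little between groups.

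The promoter sequences of the genes that rose in Ly6C-high microglia are shown because Prom1, Nes and Mecom moved together. RefSeq windows (GRCm38.p6) were found for 8 of the 10 members. Each line gives the 250 bases before an annotated start, 5′ to 3′ on the gene's strand. The exact letters GGAAG, a form of the ETS core, and their reverse complement CTTCC are in capitals.
Prom1, upstream start (chr5:44101737-44101986, minus strand): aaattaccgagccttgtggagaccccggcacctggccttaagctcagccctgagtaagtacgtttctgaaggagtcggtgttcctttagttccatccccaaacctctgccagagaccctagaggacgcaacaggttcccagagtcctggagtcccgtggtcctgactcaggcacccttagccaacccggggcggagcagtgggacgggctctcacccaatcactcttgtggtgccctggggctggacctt
Prom1, downstream start (chr5:44094769-44095018, minus strand): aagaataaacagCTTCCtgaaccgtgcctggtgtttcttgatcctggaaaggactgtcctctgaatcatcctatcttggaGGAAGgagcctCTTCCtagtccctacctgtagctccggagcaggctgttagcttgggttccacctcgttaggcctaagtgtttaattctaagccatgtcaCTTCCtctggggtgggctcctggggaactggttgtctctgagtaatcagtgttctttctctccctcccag
Nes (chr3:87970843-87971092, plus strand): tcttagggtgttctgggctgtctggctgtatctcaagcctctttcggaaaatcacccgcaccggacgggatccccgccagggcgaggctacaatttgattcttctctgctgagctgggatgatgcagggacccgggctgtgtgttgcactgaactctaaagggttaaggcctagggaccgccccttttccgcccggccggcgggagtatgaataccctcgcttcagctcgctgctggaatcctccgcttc
Mecom, upstream start (chr3:30509760-30510009, minus strand): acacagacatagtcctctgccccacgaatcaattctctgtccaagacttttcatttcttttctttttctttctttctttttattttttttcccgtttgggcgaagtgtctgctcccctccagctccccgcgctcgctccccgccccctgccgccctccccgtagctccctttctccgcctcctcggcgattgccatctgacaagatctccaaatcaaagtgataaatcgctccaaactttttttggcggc
Mecom, downstream start (chr3:30013205-30013454, minus strand): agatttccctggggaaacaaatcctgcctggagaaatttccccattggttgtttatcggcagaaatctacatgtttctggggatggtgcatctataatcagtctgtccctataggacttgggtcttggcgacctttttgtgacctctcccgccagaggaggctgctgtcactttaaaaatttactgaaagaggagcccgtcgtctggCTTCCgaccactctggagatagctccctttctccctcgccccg
ETS factors such as ERG, FLI1 and ETV6 are regulators of both endothelium and blood stem cells. Between the microglia sorts Erg rose (2.59), while Fli1 (-0.84) and Etv6 (-0.90) were not called. The ETS factor Spi1 fell (-1.71, adjusted p = 0.0302). Binding of these factors was not tested. GGAAG on either strand was present 4 times before the downstream start of Prom1 and 1 time before the downstream start of Mecom. These exact letters were not found before Nes or before the upstream starts. Among the other members it was present 3 times before Meis1, which fell, and 3 times before Hoxa9 and 1 time before Cd34, which were not called between the microglia sorts, and it was not found before Myb or Sox2. Of 32851 windows of the same length in the mouse table, 64.1% held GGAAG on either strand. The exact letters AGATAA, a form of the GATA motif (9.99% of all windows), and the E-box CACGTG (6.02%) were searched on both strands too. Neither occurred in the 10 windows of the members. Other forms of the ETS core and of the GATA motif were not searched, so a window without these letters may hold another form. With both absent there, no match of one motif overlapped another.

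Prom1, which encodes the membrane glycoprotein prominin-1 (CD133) of cell protrusions, had the largest change of the members between the microglia sorts. It stood at 9.43, 9.97 and 10.07 in Ly6C-high replicates 1 to 3, at 5.81, 5.59 and 4.95 in Ly6C-low replicates 1 to 3, and at 5.0, 4.59 and 4.88 in monocytes. The Ly6C-high arrays lay 3.61 log2 units above the nearest Ly6C-low array. The log2 fold change was 4.37 ± 0.26 over Ly6C-low microglia (20.7-fold, adjusted p = 2.83e-05) and 5.0 ± 0.26 over monocytes (32.0-fold, adjusted p = 1.17e-05). Ly6C-low microglia and monocytes overlapped, with a difference of 0.63 ± 0.26 that was not called (adjusted p = 0.163). A list that joined prominin relatives with sialomucins, the class of Cd34 and not of Prom1, was split. Of 6 measured, the sialomucins Emcn (5.18, also in the endothelium list) and Podxl (3.41) rose in Ly6C-high over Ly6C-low microglia. The sialomucins Selplg (-2.24) and Cd164 (-0.81) fell. Over all genes 4.49% rose and 11% fell.

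Nes encodes nestin, an intermediate filament of neural progenitors and of young vessels. Its values were 7.45, 7.17 and 6.97 in Ly6C-high microglia, 5.12, 4.92 and 4.91 in Ly6C-low microglia and 4.40, 4.78 and 4.5 in monocytes. No array of one sort overlapped another sort. It rose by 2.21 ± 0.16 over Ly6C-low microglia (4.63-fold, adjusted p = 7.04e-05) and by 2.64 ± 0.16 over monocytes (6.21-fold, adjusted p = 2.11e-05), while Ly6C-low microglia and monocytes differed by 0.42 ± 0.16 without a call (adjusted p = 0.124). Of 11 other intermediate filament genes, 2 rose between the microglia sorts, against 4.49% of all genes. They were Vim, which encodes vimentin (1.96 ± 0.26, adjusted p = 0.0015), and Synm, the nestin partner synemin (0.99 ± 0.22, adjusted p = 0.0151). Vim was highest in monocytes, at 11.93 to 12.19, the sort with the lowest Nes values. Without Ly6C-low replicate 2 or replicate 3, 1 filament gene was called, and 3 were called without Ly6C-high replicate 3.

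Mecom, also called Evi1 and Prdm3, encodes a zinc finger regulator needed by blood stem cells. It was the most variable member within Ly6C-high microglia, with 6.76, 7.26 and 8.49 in replicates 1 to 3. Ly6C-low microglia had 5.97, 5.12 and 5.19, and monocytes 4.90, 4.73 and 4.73. All Ly6C-high arrays lay above all others, the nearest by 0.80. The log2 fold change was 2.08 ± 0.41 over Ly6C-low microglia (4.22-fold, adjusted p = 0.0095) and 2.72 ± 0.41 over monocytes (6.58-fold, adjusted p = 0.0024). The other Mecom probe set was dimmer, with 6.18, 5.40 and 6.38 in Ly6C-high, 5.39, 5.03 and 4.86 in Ly6C-low microglia and 4.83, 5.0 and 4.83 in monocytes. In a fit of all probe sets, its difference between the microglia sorts was 0.90 ± 0.26 and was not called (adjusted p = 0.0677), and that over monocytes was 1.10 ± 0.26 (adjusted p = 0.0266). Of 8 other PRDM genes 2 fell between the microglia sorts (11% of all genes), Prdm9 (-0.90) and Prdm10 (-0.51), and the list median was -0.44. The count of lower PRDM genes was 1 without Ly6C-low replicate 3 or without both arrays numbered 11, and 3 without Ly6C-high replicate 2.

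Read one Ly6C-high replicate at a time against the Ly6C-low mean, every replicate had the sign of the group for the 5 called members. Prom1 exceeded that mean by 3.98, 4.52 and 4.62 log2 units in replicates 1 to 3, Nes by 2.47, 2.18 and 1.99, and Mecom by 1.34, 1.84 and 3.06. Myc differed by -2.35, -1.43 and -2.09, and Meis1 by -0.42, -0.54 and -1.08. The replicate with the largest Prom1 and Mecom difference was the one with the smallest Nes difference.

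Between the sorts the endothelium list was high where these 3 members were high. In every Ly6C-high array the list average was above 10. Among the Ly6C-high arrays Prom1 and Mecom had the order of the list average, lowest in replicate 1 and highest in replicate 3, while Nes had the opposite order. Within Ly6C-low microglia Prom1, Nes and Mecom were each highest in replicate 1, where the list average was highest (7.63). In Ly6C-low replicate 3, with a list average of 6.36, Prom1 was 4.95, inside the monocyte range of 4.59 to 5.0. The defining endothelial markers Cldn5 and Cdh5 were at 10.71 to 11.77 and 10.53 to 11.15 in Ly6C-high, 7.56 to 8.96 and 6.72 to 8.23 in Ly6C-low microglia, while monocytes had 6.49 to 6.89 and 6.71 to 7.20. Of 11 pericyte and smooth muscle genes 1 rose (4.49% of all genes), Vtn (2.28). In Ly6C-high replicate 3, where Mecom peaked, that list averaged 8.23 against 7.32 and 7.17 in replicates 1 and 2. With 1 brain array left out, 1 to 3 of these genes were higher, and 3 without Ly6C-high replicate 2. The part of these cells in the levels of Prom1, Nes and Mecom was not tested, and in bulk RNA a different number of cells of a type and a different amount of RNA per cell cannot be told apart.

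**Figure D2:**
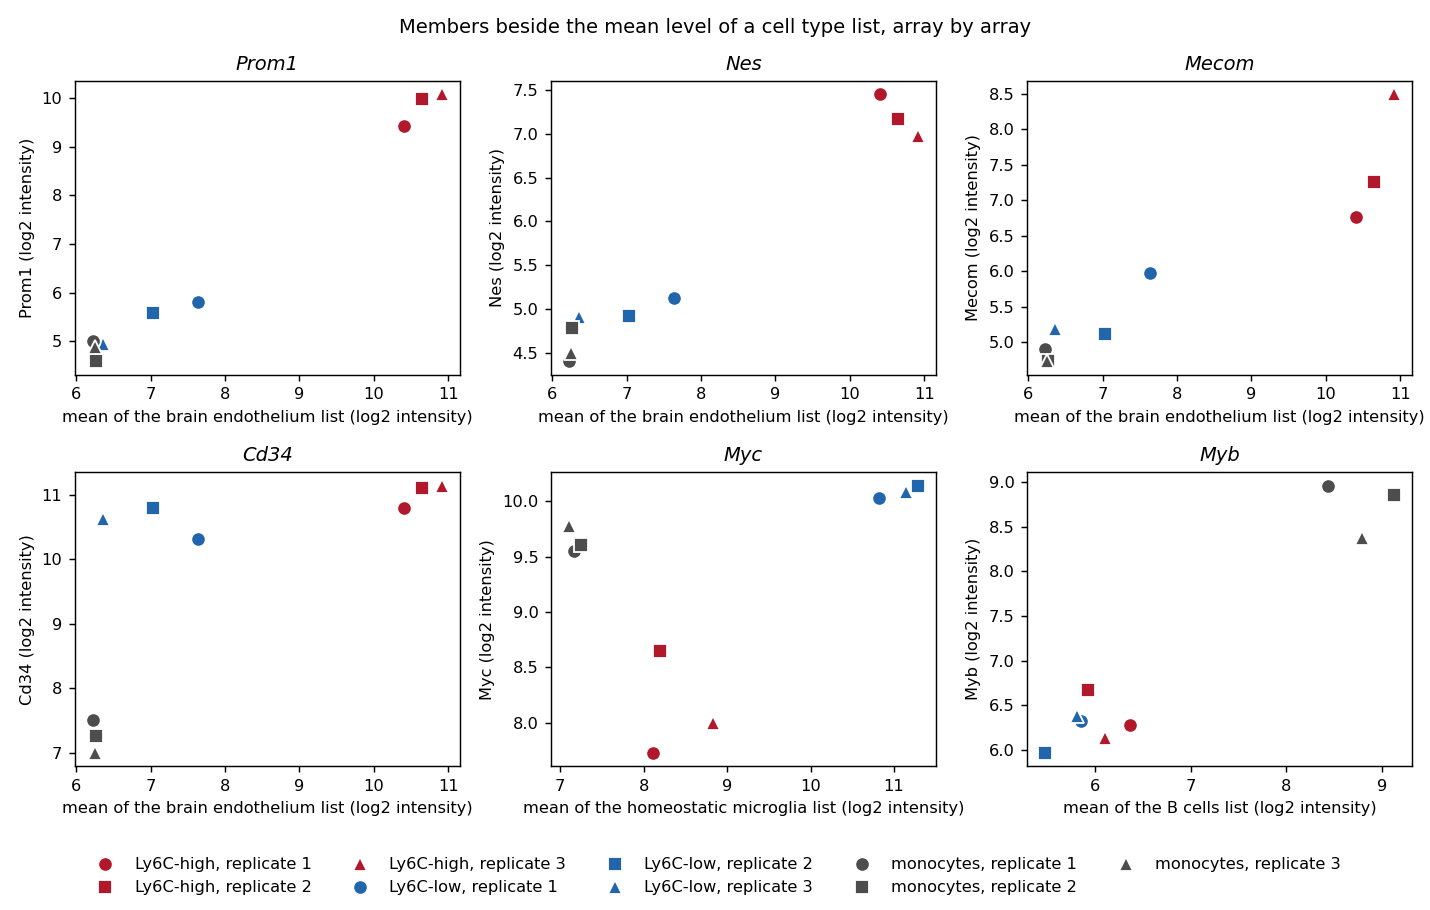
Each panel plots a member's log2 intensity (vertical axis) against the mean log2 intensity of a cell type list (horizontal axis) on the 9 arrays, coloured by sort and shaped by replicate. Prom1, Nes and Mecom are high on the arrays with an endothelium list mean above 10, Cd34 is high also at 6.36 (Ly6C-low replicate 3), Myc is above 9.5 at both ends of the microglia list, and Myb is above 8 on the arrays with the most B cell signal.

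The genes most like these members over the 9 arrays were found by Pearson correlation among 4196 genes with group means at least 1 log2 unit apart. The arrays fall into 3 groups, so these correlations are a description with no test. Closest to Prom1 were the guidance cue Sema3c (r = 0.999), the adrenomedullin co-receptor Ramp2 (0.997) and the junction molecule Esam (0.996). Closest to Nes were Rassf9 (0.991), Stox2 (0.990) and the endothelial sialomucin Emcn (0.988), and closest to Mecom were Tmem98 (0.994), Vwa3a (0.993) and the exchange factor Arhgef5 (0.993). Ramp2, Esam and Emcn are also in the endothelium list.

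Myc, which encodes a transcription factor of growth and ribosome production, was lower in Ly6C-high microglia than in either other sort. It was at 7.73, 8.65 and 8.0 in Ly6C-high replicates 1 to 3, at 10.03, 10.14 and 10.08 in Ly6C-low microglia and at 9.55, 9.60 and 9.78 in monocytes. No arrays of different sorts overlapped. The fold change was -1.96 ± 0.21 on the log2 scale against Ly6C-low microglia (3.88-fold lower, adjusted p = 4.80e-04) and -1.52 ± 0.21 against monocytes (2.86-fold lower, adjusted p = 0.0016). Ly6C-low microglia and monocytes differed by 0.44 ± 0.21, which was not called (adjusted p = 0.238). This SE includes the wider spread of the Ly6C-high arrays. The difference was called in 4 of 19 alternative settings, among them the fit of these 2 groups alone. Replicate 2, the Ly6C-high array nearest to the others in Myc, was also the one with the most classical monocyte signal (list average 9.66, against 10.24 to 10.54 in monocytes). Without it the call over Ly6C-low microglia held, and the part of monocyte RNA in its level was not tested. The genes most like Myc were Arhgap4 (r = 0.995), the RNA surveillance kinase Smg1 (0.994) and the kinase Prkcd (0.993).

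Genes around Myc were read from 2 lists. Of 11 partners and antagonists in its network, 2 fell in Ly6C-high against Ly6C-low microglia, against 11% of all genes. They were the glucose-sensing partner Mlxip (-2.30) and the MAX binder Mga (-1.04). The list median was -0.21, and 0.00 without Ly6C-high replicate 1. Of 24 MYC target genes, 4 fell (11% of all genes) and 1 rose (4.49%). Their median was -0.50, and -0.20 without Ly6C-high replicate 1. The targets that fell were the DNA repair enzyme Apex1 (-1.70 ± 0.11, adjusted p = 6.00e-05), the nucleolar proteins Gnl3 (-1.10) and Ddx21 (-0.90) and the cell cycle kinase Cdk4 (-0.71). Tfrc, which encodes the transferrin receptor, went the other way, at 10.58 to 11.09 in Ly6C-high and 7.62 to 8.67 in Ly6C-low microglia (2.49 ± 0.34, adjusted p = 0.0017). Against monocytes 14 of the 24 targets were lower in Ly6C-high microglia (14.6% of all genes) and 1 was higher (6.88%). The median there was -0.87, beside 0.09 over all genes. Between the microglia sorts the count of lower targets was 6 without Ly6C-high replicate 2 or Ly6C-low replicate 1, and it was 2 when Ly6C-low replicate 2 was left out or without both arrays numbered 11. The target list averaged 7.58, 8.07 and 8.01 in Ly6C-high, 8.02, 8.38 and 8.35 in Ly6C-low microglia, while monocytes had 8.63 to 8.71.

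Meis1, a homeobox cofactor of HOX proteins, showed the smallest called change. Its values were 5.62, 5.50 and 4.96 in Ly6C-high, 5.83, 6.14 and 6.15 in Ly6C-low microglia and 5.76, 5.71 and 5.76 in monocytes. The microglia sorts were separated by 0.21 at their nearest arrays, and the fold change of -0.68 ± 0.18 had an adjusted p of 0.0340. The call held in 10 of 18 alternative settings, with adjusted p from 0.0028 to 0.123, and was lost without Ly6C-low replicate 2 (-0.63, adjusted p = 0.121), Ly6C-low replicate 3 (-0.63, 0.123) or any 1 of the monocyte arrays (-0.68, 0.0582 to 0.0608). It was also lost when the replicate numbers were fitted as a block (-0.68, adjusted p = 0.0621). Monocytes lay between the sorts, and neither difference was called: -0.38 ± 0.18 for Ly6C-high microglia (adjusted p = 0.148) and 0.30 ± 0.18 for Ly6C-low microglia (adjusted p = 0.368).

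Hoxa9, the HOX partner of MEIS1 in immature blood cells, was not called in any comparison. It was at 6.08, 5.89 and 5.92 in Ly6C-high, 5.86, 5.78 and 5.89 in Ly6C-low microglia and 5.89 in all 3 monocyte arrays, a range of 0.30 over the 9 arrays. The 95% interval of the difference between the microglia sorts ran from -0.10 to 0.34. Among 18 measured HOXA and TALE partner genes, 2 TALE genes fell between the microglia sorts, Meis3 (-0.67) and Pknox1 (-0.63), and none rose. Over all genes 11% fell and 4.49% rose, so the count that fell is near the share over all genes. Each of the 2 calls was lost in 11 of 19 alternative settings, and neither remained without Ly6C-high replicate 1, Ly6C-low replicate 2 or Ly6C-low replicate 3. The list median was 0.06.

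Cd34, a sialomucin of blood progenitors and vessels, was higher in both microglia sorts than in monocytes and was not called between the microglia sorts. It was at 10.79, 11.11 and 11.14 in Ly6C-high, 10.32, 10.79 and 10.62 in Ly6C-low microglia and 7.51, 7.26 and 7.0 in monocytes. Against monocytes it was higher by 3.75 ± 0.18 in Ly6C-high (13.5-fold, adjusted p = 8.76e-06) and by 3.32 ± 0.18 in Ly6C-low microglia (9.97-fold, adjusted p = 1.16e-05). The nearest arrays of the microglia sorts were both at 10.79, and the difference between the sorts of 0.44 ± 0.18 was not called (adjusted p = 0.151, 95% interval 0.03 to 0.84). It was called only under quantile normalization (0.64, adjusted p = 0.0147) among 19 settings. In Ly6C-low replicate 3 the endothelium list averaged 6.36, near the monocyte values, while Cd34 stood at 10.62. The part of endothelial cells in the Cd34 level was not tested in either microglia sort. The genes most like Cd34 were the tight junction scaffold Tjp1 (r = 0.988), the progestin receptor Paqr7 (0.985) and the junction adhesion molecule Jam2 (0.983).

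Lmo2, the LIM-only bridge of a DNA-binding complex in blood and vessel progenitors, had group means in the order of Cd34. It was at 8.68, 8.85 and 9.24 in Ly6C-high, 8.22, 8.87 and 8.73 in Ly6C-low microglia and 7.65, 7.80 and 8.24 in monocytes. Ly6C-high microglia exceeded monocytes by 1.03 ± 0.23 (2.04-fold, adjusted p = 0.0149), a call lost without monocyte replicate 1 (0.90, adjusted p = 0.0612) or monocyte replicate 2 (0.98, 0.0581). Ly6C-low microglia overlapped both neighbours, and neither step was called: 0.32 ± 0.23 below Ly6C-high microglia (adjusted p = 0.400) and 0.71 ± 0.23 above monocytes (adjusted p = 0.0796). The genes most like it were Crim1 (r = 0.948), the SRC-family kinase Yes1 (0.942) and the lipase Mgll (0.936).

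The 13 genes of the LMO2 complex were mixed between the microglia sorts, with 1 higher (4.49% of all genes), 3 lower (11%) and 9 not called. Their median was 0.10 (-0.05 to 0.10 with 1 brain array left out). Gata2 rose by 2.12 ± 0.27 (adjusted p = 0.0013), with 8.66, 8.57 and 9.19 in Ly6C-high against 7.27, 6.45 and 6.34 in Ly6C-low microglia. Lyl1, a bHLH partner, fell by 1.86 on the log2 scale (adjusted p = 0.0119), the single-stranded DNA-binding cofactor Ssbp2 by 1.74 and the LIM adaptor Ldb1 by 0.58 on the log2 scale. Tal1, the partner LMO2 is best known for, was not called (-0.34, adjusted p = 0.180). The count of lower genes was 1 without Ly6C-low replicate 2 or without both arrays numbered 11, and 4 without Ly6C-high replicate 2.

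Myb, a regulator of proliferating blood progenitors, was high in the spleen sort. Monocytes were at 8.96, 8.86 and 8.37, Ly6C-high microglia at 6.28, 6.67 and 6.13, and Ly6C-low microglia at 6.32, 5.97 and 6.38. The microglia sorts overlapped (0.13 ± 0.21, adjusted p = 0.688, 95% interval -0.33 to 0.60). Both were lower than monocytes, Ly6C-high by 5.18-fold (-2.37 ± 0.21, adjusted p = 1.35e-04) and Ly6C-low by 5.68-fold (-2.51 ± 0.21, adjusted p = 1.04e-04). Lymphocyte markers were high on the same arrays: the 7 B cell genes averaged 8.44 to 9.13 in monocytes and 5.47 to 6.36 in microglia, and the 9 T and NK cell genes 7.31 to 8.24 and 5.34 to 5.67. The 16 blood stem cell surface genes averaged 7.89 to 7.99 in monocytes and 6.77 to 7.51 in microglia. The 19 mitosis genes averaged 6.45 to 7.38 in monocytes and 5.54 to 7.43 in microglia. The part of lymphocytes, progenitors or dividing cells in the Myb level was not tested. The genes most like Myb were Runx3 (r = 0.995), the leukocyte integrin Itgal (0.992) and Vav3 (0.992).

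Sox2, a factor of neural and pluripotent stem cells, was not called in any comparison. It was at 4.46, 4.45 and 4.33 in Ly6C-high, 4.74, 4.32 and 4.33 in Ly6C-low microglia and 4.24, 4.07 and 4.33 in monocytes, and each sort overlapped the others. The 95% interval between the microglia sorts ran from -0.37 to 0.27 log2 units. Of 21 other neural stem and progenitor genes 3 rose between the microglia sorts (4.49% of all genes) and none fell (11%), with a median of 0.13. Those that rose were Vim, the Notch target Hes1 (1.89 ± 0.29, adjusted p = 0.0027) and the RNA-binding protein Msi2 (0.50, a call lost in 9 of 19 settings). Pax6, Sox1, Fabp7, Nr2e1 and Hes5 were not called, with log2 fold changes of -0.13, 0.07, -0.12, 0.11 and 0.03. Of 12 pluripotency genes 2 rose (4.49% of all genes), Tbx3 (2.72 ± 0.26, adjusted p = 2.50e-04) and Dppa5a (0.81, a call lost in 7 of 18 settings). The count of higher pluripotency genes was 1 to 3 when 1 array was left out. Pou5f1 and Nanog, which define that state, were not called (0.30 and -0.02).

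Against monocytes, 7 of the 10 members were called in Ly6C-high microglia (21.5% of all genes). Prom1, Nes, Mecom, Cd34 and Lmo2 were higher (5 of 10, against 6.88%) and Myc and Myb lower (2 of 10, against 14.6%). In Ly6C-low microglia 2 of 10 were called (14.5% of all genes), Cd34 higher (1 of 10, against 6.8%) and Myb lower (1 of 10, against 7.71%). The median of the members was 0.62 in the former comparison and 0.43 in the latter, beside 0.09 and 0.05 over all genes. The comparisons share arrays, so their values are not independent of one another. Of the calls of Ly6C-high microglia against monocytes 32.0% were higher as deposited and 45.1% after quantile normalization. The Ly6C-low count varied with the setting: 4 members were called under quantile normalization and 6 with array weights, which let each array have its own variance. Over all genes the same settings called 2809 and 5738, against 2894 as fitted here.

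**Figure D3:**
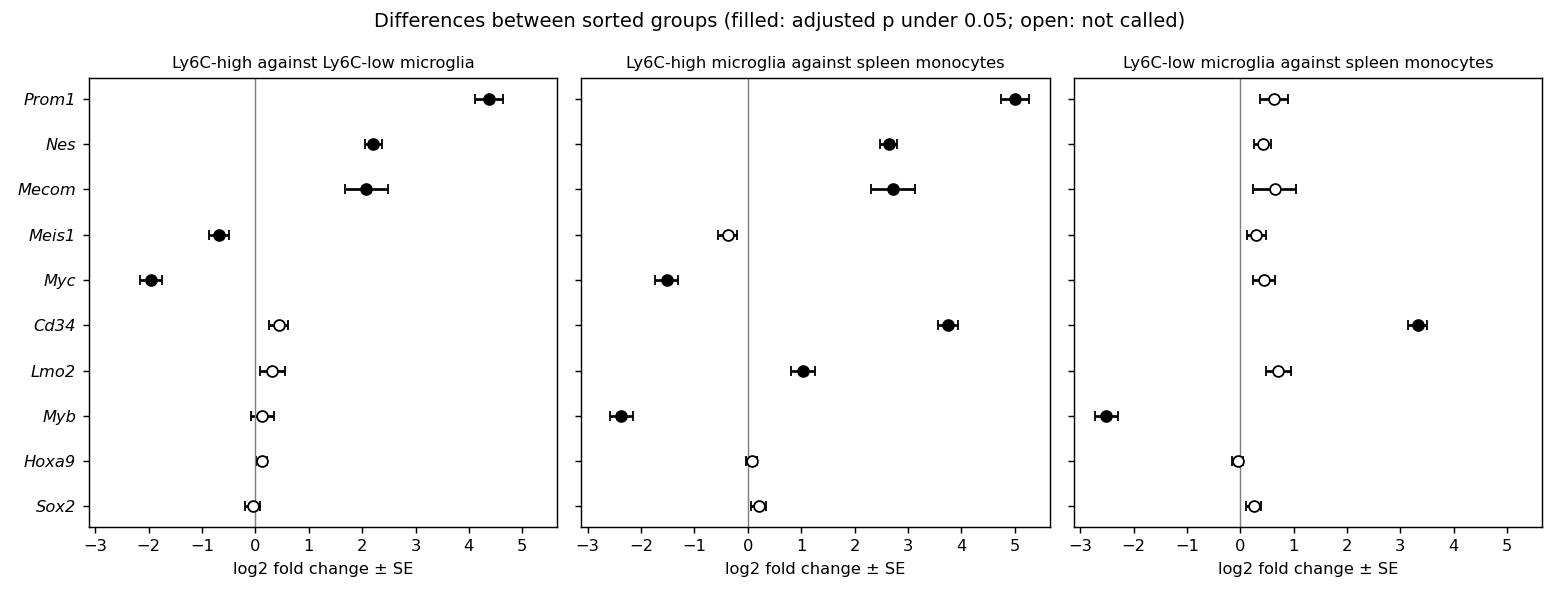
Log2 fold change ± SE of each member (horizontal axis) in the 3 comparisons, with filled points for an adjusted p under 0.05 and open points for genes not called. Prom1, Nes and Mecom are filled in both comparisons with Ly6C-high microglia and open in the third, while Cd34 and Myb are filled in both comparisons with monocytes.

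The wider blood stem cell lists were mixed between the microglia sorts. Of 25 blood stem cell transcription factors 4 rose (4.49% of all genes) and 7 fell (11%), with a median of -0.05. Those that changed most were Erg (2.59 ± 0.33, adjusted p = 0.0011), Runx1 (-2.58 ± 0.46, adjusted p = 0.0061), Cebpa (-2.43 ± 0.19, adjusted p = 1.18e-04) and Ikzf1 (-2.21 ± 0.42, adjusted p = 0.0085). Erg is a regulator of endothelium and blood stem cells, Runx1 opens the blood programme, and Cebpa and Ikzf1 guide myeloid and lymphoid cells. Runx1 was at 6.91, 8.67 and 6.57 and Ikzf1 at 7.08, 8.61 and 6.95 in Ly6C-high replicates 1 to 3, highest in replicate 2 like Myc.

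Of 16 measured blood stem cell surface genes 5 rose (4.49% of all genes) and 2 fell (11%). Their median was -0.05, and -0.08 to 0.09 with 1 brain array left out. The count of higher genes was 3 without Ly6C-low replicate 2 and likewise without replicate 3 of that sort. Esam (3.59 ± 0.25, adjusted p = 7.04e-05), the angiopoietin receptor Tek (3.46 ± 0.42, adjusted p = 8.94e-04) and Cd93 (3.03 ± 0.35, adjusted p = 7.23e-04) rose, and Csf1r, the CSF1 receptor on which microglia depend, fell by 2.37 ± 0.20 on the log2 scale (adjusted p = 1.47e-04). Esam and Tek are in the endothelium list too. The stem cell factor receptor Kit (0.18) and the progenitor receptor Flt3 (-0.19) were not called between the microglia sorts. Both were lower in Ly6C-high microglia than in monocytes (-2.21, adjusted p = 1.50e-04, and -1.52, adjusted p = 9.68e-04). In that comparison 10 of the 16 surface genes were lower (14.6% of all genes) and 3 higher (6.88%), with a median of -1.47. Of 19 mitosis genes 2 rose between the microglia sorts (4.49% of all genes), Kif23 (1.71) and Aurkb (0.73). The list median was 0.90, and 0.35 without Ly6C-high replicate 2. The Aurkb call was lost in 13 of 19 settings. The count of higher mitosis genes was 1 without Ly6C-high replicate 2 or any 1 of the Ly6C-low arrays, and 3 without Ly6C-high replicate 3.

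**Figure D4:**
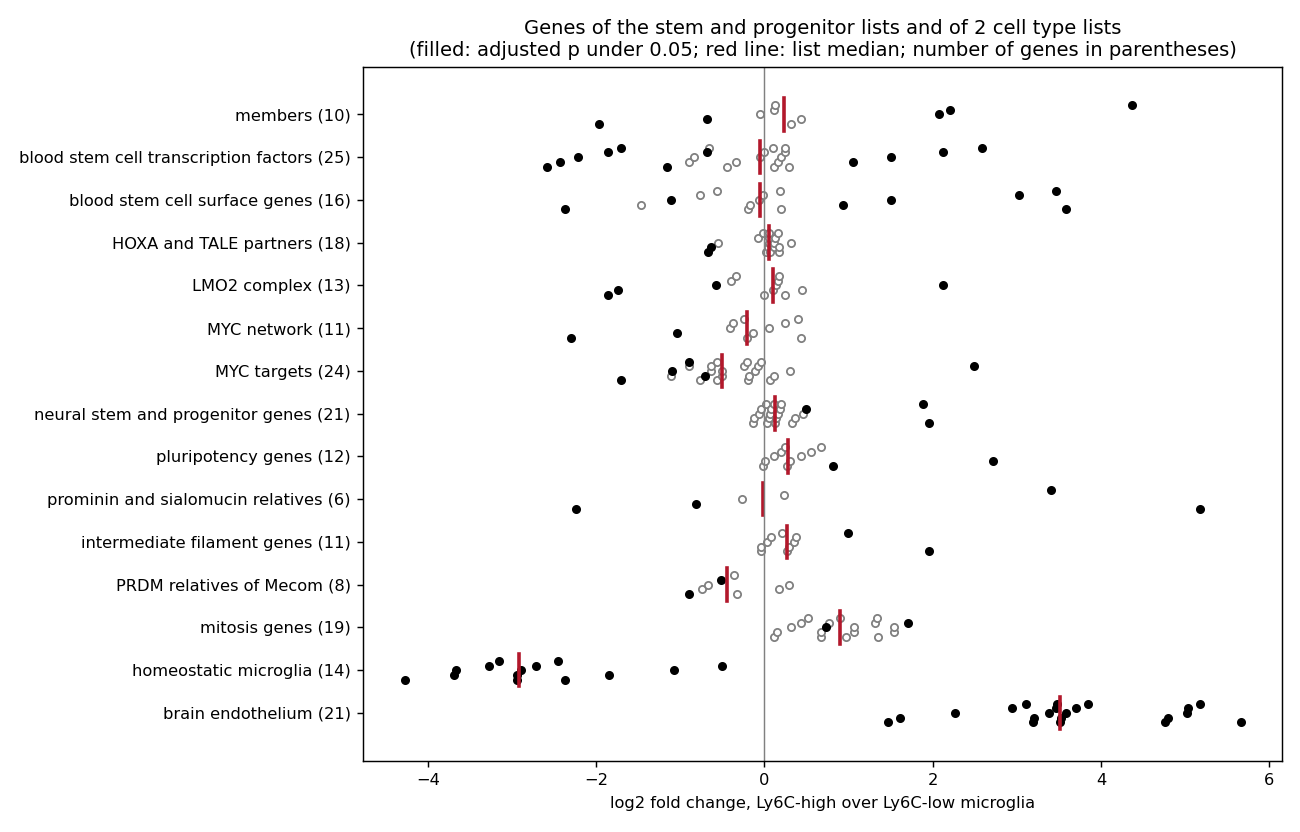
Log2 fold change of every measured gene (points; horizontal axis) of the members, of 12 lists of related genes and of 2 cell type lists (rows), in Ly6C-high over Ly6C-low microglia, filled where the adjusted p is under 0.05, with list medians as red lines. Medians of the stem and progenitor lists lie between -0.50 (MYC targets) and 0.90 (mitosis genes), while the microglia list lies at -2.92 and the endothelium list at 3.51.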

How the data were processed

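RNA of 9 sorted samples was converted to biotin-labelled whole-transcript cDNA for Affymetrix arrays, per the labels' protocols. The authors deposited log2 intensities for 34760 probe sets (2.54 to 13.81, array medians 5.83 to 5.96). The submitters' processing notes list oligo and RMA. No setting or build is given in the sources used here. RMA can compress differences of dim genes, and scaling different cell types together can shift genes.

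Values were used as deposited. GEO's platform annotation gave 21640 probe sets 1 symbol, and the brightest by mean represented a gene (19937 genes). limma 3.58.1 in R 4.3.3 (lmFit, eBayes) fitted 3 group means to 9 arrays, two-sided, at an adjusted p of 0.05 (Benjamini-Hochberg, all genes). Every adjusted p is from limma, and the code was tested on simulated data. Members, lists and motifs were chosen with earlier results of these data known. Named genes are the members, the 3 genes most correlated with each member whose group means differ by at least 1 log2 unit, and from each list up to 4 called genes with the largest change, or all where 5 or fewer were called (3 and the defining markers for cell types). Others (Tal1, Kit, Flt3, Pax6, Sox1, Fabp7, Nr2e1, Hes5, Pou5f1, Nanog, Fli1, Etv6, Spi1) were named after their values were seen. Alternatives were quantile or median scaling, a filter on dim genes, probe set averaging, other variance settings, fits of 2 groups, blocks on label numbers and left-out arrays. All probe sets were also fitted singly for Mecom, an alternative chosen after seeing the data.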

Additional observations from a re-analysis of the deposited data

How the results depend on the processing

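No called result for a member reversed its sign under any of the alternatives run. Of 30 member results (10 members in 3 comparisons), 21 stayed on the same side of the threshold throughout. Between the microglia sorts, Prom1, Nes and Myc were called in 19 of 19 alternatives and Mecom in 18, losing its call without both arrays numbered 11 (2.08, adjusted p = 0.0558), which left 3 members called. The dim gene filter removed Meis1, Hoxa9 and Sox2. Over all genes, calls between the microglia sorts numbered 2038 in a fit of the 2 groups alone and 1956 to 3888 when 1 array was left out, with 4 to 5 members called. For Ly6C-high microglia against monocytes, leaving out 1 array gave 2505 to 6091 genes and 6 to 7 members. For Ly6C-low microglia against monocytes, 4 members were called after quantile normalization and 6 with array weights. All genes there numbered 5738 with array weights, 4614 with the 2 groups alone and 1864 to 3778 with 1 array left out, with 2 to 3 members. The causes were not tested.

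The title numbers are shared between groups, but same-numbered microglia arrays deviated together unevenly (correlations of 0.301, 0.153 and -0.032), so they were not taken as pairs. With the number as a replicate block, 4, 7 and 3 members were called in the 3 comparisons, and 2973, 4295 and 2795 genes. The descriptions carry other numbers, of which 8 and 11 each occur in a Ly6C-high and a Ly6C-low array, and the labels do not say what they mark. Deviations in those 2 pairs correlated at 0.301 and 0.21. With these numbers as a random block (correlation 0.294), 5, 7 and 2 members and 3932, 4287 and 2937 genes were called. With 3 arrays per group and no detection calls, the intervals of dim genes such as Sox2 and Hoxa9 need not bound a difference in RNA. Hoxa9 was at exactly 5.8934 and Sox2 at exactly 4.3326 on arrays of every sort.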
